A study of Mus musculus with 4 samples.

Results

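The genes of arginine and polyamine metabolism were described in mouse dendritic cells treated with SAHA. They were 10 genes chosen by name, among 18196 features tested (18194 genes with a probe set of their own and 2 probe sets that Ass1 and Sms share with a pseudogene): the arginases Arg1 and Arg2, the nitric oxide synthase Nos2, the arginine-making enzymes Ass1 and Asl, the polyamine-making enzymes Odc1, Srm and Sms, the polyamine-breaking enzyme Sat1, and the antizyme Oaz1. Each was read by its brightest probe set over the 4 arrays, out of 17 probe sets that the platform annotation pairs with these genes. There were 2 SAHA arrays and 2 control arrays, all of marrow-derived dendritic cells from C57BL/6 mice. The SAHA cells received the drug at a dose the labels write as 500 nm for 12 hours, and the control cells received the diluent alone. Both groups shared 7 days of culture in 10 ng/ml GM-CSF and 10 ng/ml IL-4, selection for the integrin chain CD11c to a stated purity of 95%, and marrow pooled from at least 3 mice. SAHA, the drug vorinostat, blocks histone deacetylases, which take acetyl groups off histones and other proteins. The comparison asks how the drug altered the expression profile of these cells.

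Arginine stands at a fork in myeloid cells. Arginases split it into urea and ornithine, while the inducible nitric oxide synthase turns it into nitric oxide and citrulline, and Ass1 and Asl rebuild arginine from citrulline. Ornithine feeds ornithine decarboxylase, Odc1, which opens the polyamine route from putrescine to spermidine and spermine, small cations needed for growth and translation. In mouse macrophages and dendritic cells Arg1 is a classical target of IL-4 and STAT6, and Nos2 of interferon-gamma and microbial signals.

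Values are log2 probe set values as deposited, and a difference of 1 is a 2-fold difference. Probe sets bind with different strength, so a value is compared between arrays and never between genes. The arrays correlated at 0.995 between the SAHA replicates and 0.993 between the control replicates, and at 0.982 to 0.989 between groups (Pearson's r across 18196 features, which are not independent replicates). All 10 dendritic cell markers on the list were measured, 1 passed the limma test described next (the lectin gene Clec10a, higher in SAHA cells), and Itgax, which encodes CD11c, had values of 13.2 and 12.5 in SAHA cells and 13.4 and 12.4 in control cells. The labels call the replicates biological but do not tie each to its own marrow pool, so the spread behind the p-values may in part be technical. An exact two-sided permutation test of 2 arrays against 2 cannot go below p = 0.333, so calls come from limma fitted across all 18196 features, with a Benjamini-Hochberg adjusted p under 0.05. Intervals are limma's 95% intervals of 1 gene at a time, not adjusted for the number of genes.

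None of the 10 genes passed the test, where 405 of the 18196 features (2.23%) did. At an unadjusted p under 0.05 it was 3 of the 10, Arg1, Ass1 (with its pseudogene) and Srm, against 18.1% of all features. The largest difference was in Arg1. Its SAHA mean was 11.4-fold lower, with a SAHA value below its array's 25th percentile raised to that percentile. Srm was 2.14-fold lower in SAHA cells. The means of the other 8 differed by at most 1.42-fold, the value of Arg2. The 2 SAHA arrays lay on 1 side of both control arrays in 8 of the 10 genes, as they did in 50.7% of all features. The median change of the 10 was -0.09, and that of all features was -0.05.

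**Figure D1:**
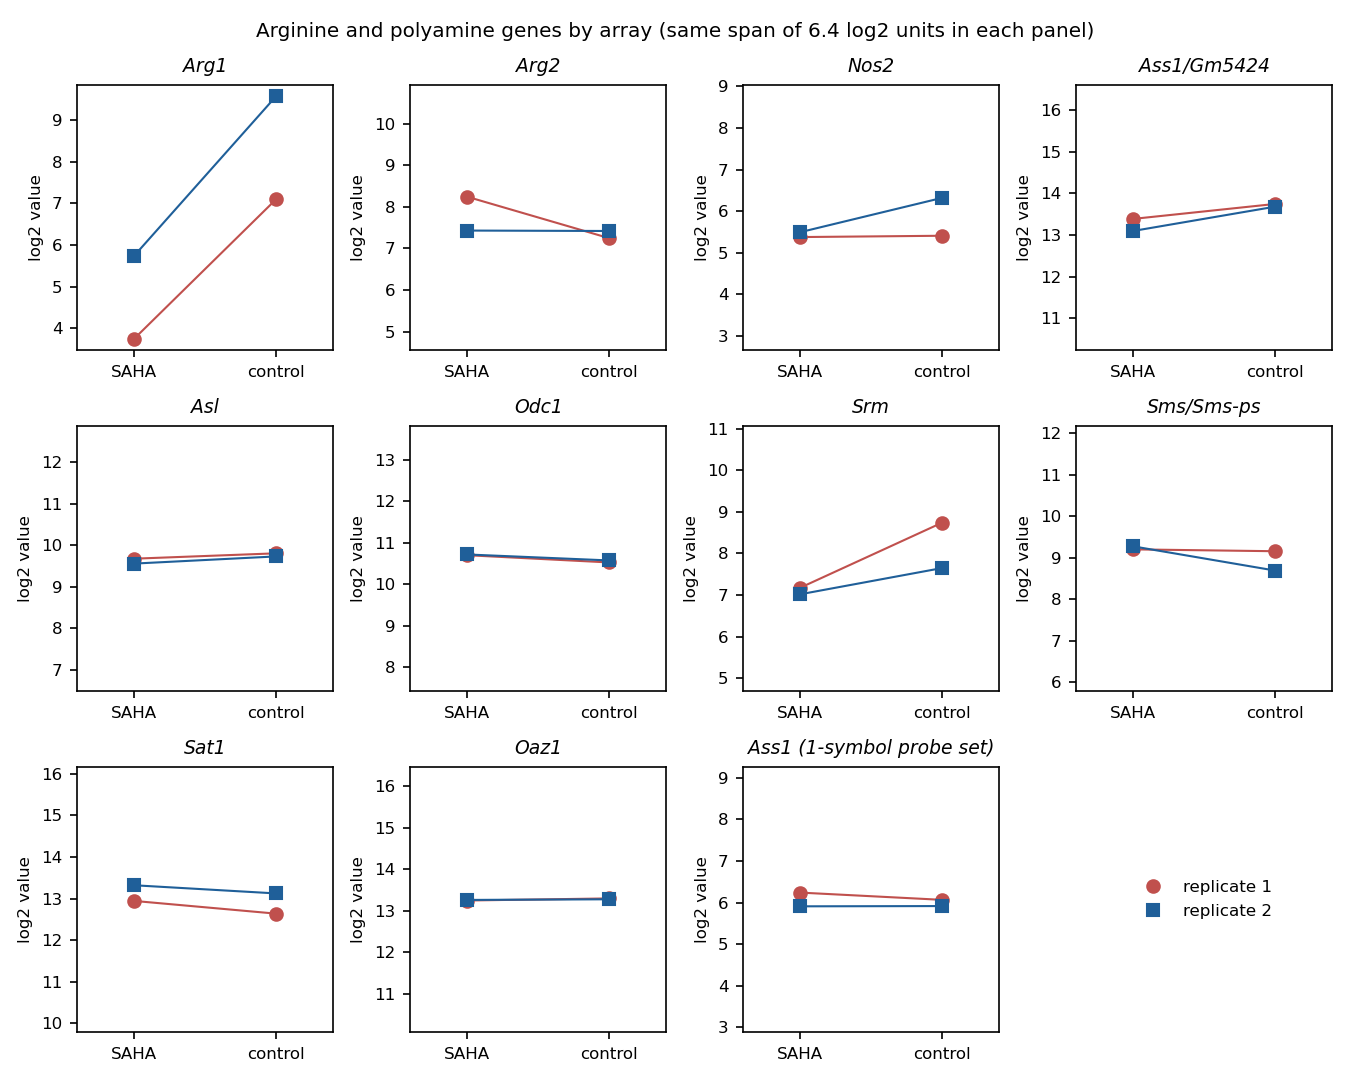
Log2 values of the 10 genes on each array, with SAHA at the left and control at the right of each panel; a circle is replicate 1, a square replicate 2, and lines join arrays of the same number. All panels span the same number of log2 units, so the slopes can be compared; the steepest is that of Arg1, with SAHA values of 3.74 and 5.74 and control values of 7.10 and 9.58.

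Arg1, the cytosolic arginase, had values of 3.74 and 5.74 in replicates 1 and 2 of the SAHA cells, and of 7.10 and 9.58 in replicates 1 and 2 of the control cells. Both SAHA arrays lay below both control arrays. SAHA replicate 1 was below its array's 25th percentile, 3.94, where signal and background are hard to tell apart. The mean was 4.74 ± 1.41 in SAHA cells and 8.34 ± 1.75 in control cells (SD, n = 2 each). The log2 change of -3.60 ± 0.90 (SE, interval -5.77 to -1.43) did not pass the test (limma, adjusted p = 0.110). With SAHA replicate 1 raised to that percentile the change was -3.51, a SAHA mean 11.4-fold lower. With 32 added to each linear value the change was -2.56, so the fold depends on how low values are handled. Arg1 nevertheless had the most negative change of the 18196 features. It kept that place in 13 of 15 alternative settings, but some of these could not move it. Other spread estimates, the replicate block and the ordinary linear model leave each change as it was. Median scaling shifts all features alike, and the level filter only removes genes. Without SAHA replicate 1 Arg1 ranked 2, and without control replicate 2 it ranked 8. Fewer Arg1-expressing cells and less Arg1 RNA per cell cannot be told apart in these bulk samples.

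The spread of Arg1 within a group ran the same way in both groups. Replicate 2 exceeded replicate 1 by 1.996 in SAHA cells and by 2.48 in control cells, and differences this large were found in 0.044% of features in each group. SAHA minus control was -3.36 within replicate 1 and -3.84 within replicate 2. Without control replicate 1 the gene passed, at -4.84 (adjusted p = 0.0158), and over 15 alternatives its adjusted p ran from 7.37e-08, with a replicate block, under which it also passed, to 0.527.

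Some markers of other cell types differed between groups or between replicates in the direction in which Arg1 did, and others did not. The eosinophil marker Siglecf, replicate 2 minus replicate 1, was at -1.10 in SAHA cells and -2.26 in control cells. The mean log2 level of the eosinophil list was 4.58 and 4.23 on the SAHA arrays and 4.93 and 4.33 on the control arrays. Of 9 neutrophil markers measured, 5 were called lower in SAHA cells, none higher, and the mean log2 level of the list was 6.15 and 6.28 on the SAHA arrays and 7.13 and 7.24 on the control arrays. Of all features 0.709% were called lower. Ltf, the granule protein lactoferrin, had values of 5.59 and 5.90 in SAHA cells and 7.11 and 7.50 in control cells. No measured neutrophil marker lay under the 25th percentile on all 4 arrays. Of 10 macrophage markers none was called, and their mean level was 11.7 and 12.1 on the SAHA arrays and 11.8 and 12.2 on the control arrays. Between groups 3 had a positive and 7 a negative change. The most negative, Mertk, had values of 8.92 and 9.29 in SAHA cells and 10.02 and 10.03 in control cells. Its change of -0.92 ± 0.17 (SE) just missed the threshold (limma, adjusted p = 0.0509). Of the 10, 6 were higher in replicate 2 of both groups and 4 were lower in it (Mrc1, Cd14, Cd68 and Csf1r). The largest of these differences were upward. Fcgr1, the high-affinity Fc receptor of macrophages, was 1.53 higher in replicate 2 of SAHA cells and 1.31 higher in replicate 2 of control cells, and C1qa, a complement chain, 1.34 and 1.30 higher, whereas Mrc1, the mannose receptor, was at -0.37 and -0.14 and Adgre1, the F4/80 antigen, at 0.01 and 0.06. Among the dendritic cell markers Itgax went the other way, lower in replicate 2 of each group by the values given above. Flt3, H2-Ab1, Cd74, Cd86, Ccr7 and Dpp4 were higher in replicate 2 of both groups, Cd86 by 0.64 in SAHA cells and 1.23 in control cells. Zbtb46, Ciita and Clec10a differed in sign between the groups. The part of neutrophils or macrophages in the Arg1 values was not tested.

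**Figure D2:**
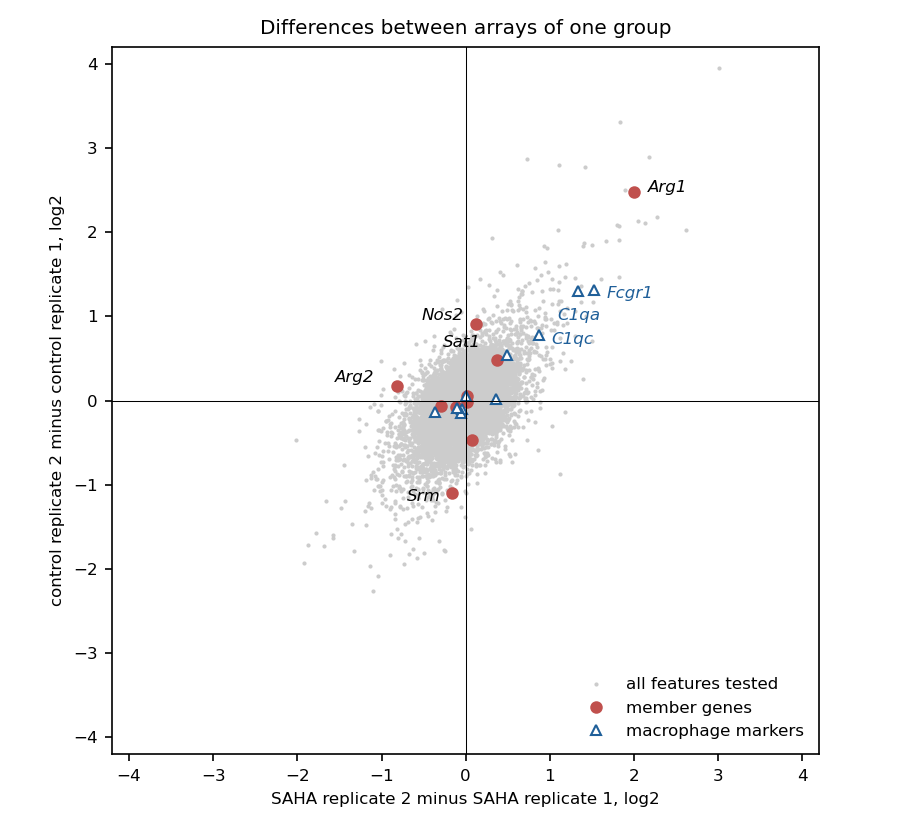
Replicate 2 minus replicate 1 in log2 units, in SAHA cells on the horizontal axis and in control cells on the vertical axis; grey points are the 18196 features, red circles the 10 genes and open triangles the 10 macrophage markers measured. Arg1 lies at 1.996 and 2.48, with Fcgr1 and C1qa in the same quadrant and 4 macrophage markers below 0 on both axes, while Srm lies low on the control axis at -1.09.

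Among genes above the median level, the 3 whose array pattern lay nearest to that of Arg1 were Plat, Il6 and Orm1, by Euclidean distance between centred log2 values over the 4 arrays (1.38, 1.53 and 1.88). Plat, tissue plasminogen activator, had values of 5.53 and 6.28 in SAHA cells and 8.06 and 9.46 in control cells. The cytokine gene Il6 had 6.19 and 7.99 in SAHA cells and 8.16 and 10.2 in control cells. Orm1, an acute-phase protein, had 6.78 and 6.99 in SAHA cells and 8.95 and 10.04 in control cells. All 3 were lower in both SAHA arrays and higher in replicate 2 of each group. They were chosen for likeness to Arg1 on these same arrays, so the shared directions follow from the choice. The replicate difference of Orm1 in SAHA cells was only 0.21. Plat and Orm1 passed the test (limma, adjusted p = 0.0406 and 0.0240), and Il6 did not (0.232).

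Arg2, the mitochondrial arginase, had values of 8.24 and 7.43 in SAHA cells and 7.25 and 7.42 in control cells. The upward difference came from replicate 1, where it was 0.997, whereas in replicate 2 it was 0.01. The change was 0.50 ± 0.27 (SE, interval -0.16 to 1.16; limma, adjusted p = 0.393). Its other probe set had the same form, with 6.80 and 6.16 in SAHA cells against 5.80 and 6.29 in control cells. The groups of this other probe set overlapped, and those of the brighter one were separated by replicate values of 7.43 and 7.42, so no direction is given for Arg2.

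Nos2, the inducible nitric oxide synthase, had values of 5.38 and 5.49 in SAHA cells and 5.41 and 6.32 in control cells. Only control replicate 2 stood above the rest, and the groups overlapped. The change of -0.43 ± 0.29 (SE, interval -1.13 to 0.27) did not pass (limma, adjusted p = 0.485), and without control replicate 2 it was 0.027. Control replicate 2 was thus the high array for Arg1 and for Nos2, the enzymes that compete for arginine.

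The enzymes that rebuild arginine from citrulline differed little. Argininosuccinate synthase, Ass1, joins citrulline to aspartate, and its brightest probe set is one the annotation pairs also with Gm5424, a transcribed pseudogene, so its signal cannot be assigned to Ass1 alone. That shared probe set had values of 13.4 and 13.1 in SAHA cells and 13.7 and 13.7 in control cells. Both SAHA arrays were lower, by 1.39-fold in the mean (change -0.47 ± 0.13, SE, interval -0.77 to -0.17; limma, adjusted p = 0.124). The probe set annotated to Ass1 alone had 6.24 and 5.91 in SAHA cells and 6.07 and 5.92 in control cells, with overlapping groups and a change of 0.08 ± 0.17 (SE). Its difference was 0.17 within replicate 1 and -0.006 within replicate 2, so this probe set gives no direction. Neither probe set passed.

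Asl, which releases arginine and fumarate, had values of 9.67 and 9.56 in SAHA cells and 9.80 and 9.73 in control cells. The groups did not overlap, but the change of -0.15 ± 0.14 (SE, interval -0.48 to 0.18; limma, adjusted p = 0.599) was small: differences this large or larger were found in 54.3% of features. Of the 10 genes, 5 had an entry in a RefSeq promoter table (build GRCm38.p6), namely Ass1, Odc1, Sat1, Sms and Oaz1. The windows of Ass1 and Odc1, the entry enzymes of arginine resynthesis and of the polyamine route, are shown from 250 bases before to 50 bases after the start that the table uses, with motif matches in capitals. That start is the annotated gene start for Ass1 and lies 65 bases inside the annotated gene for Odc1. The motifs searched on both strands were CACGTG, the E-box bound by MYC, GGGCGG, the GC box bound by SP1, and TATAAA, the TATA box.
Ass1 (chr2:31470020-31470319, plus strand): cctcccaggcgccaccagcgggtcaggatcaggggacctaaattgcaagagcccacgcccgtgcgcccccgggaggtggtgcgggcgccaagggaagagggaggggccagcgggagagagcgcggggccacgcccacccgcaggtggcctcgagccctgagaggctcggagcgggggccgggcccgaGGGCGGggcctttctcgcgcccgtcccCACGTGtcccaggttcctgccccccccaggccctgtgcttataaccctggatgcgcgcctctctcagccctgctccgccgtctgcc
Odc1 (chr12:17544623-17544922, plus strand): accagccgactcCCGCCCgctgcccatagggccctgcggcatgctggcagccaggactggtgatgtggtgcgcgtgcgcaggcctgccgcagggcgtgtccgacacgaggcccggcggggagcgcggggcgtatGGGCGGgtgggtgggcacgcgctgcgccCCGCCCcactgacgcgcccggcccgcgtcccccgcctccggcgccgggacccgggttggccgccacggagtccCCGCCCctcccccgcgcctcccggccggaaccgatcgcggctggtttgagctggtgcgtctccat
The Ass1 window held 1 E-box, beginning at position -36 from that start, and 1 GC box; the Odc1 window held 4 GC boxes and no E-box, and matches to different motifs did not overlap. Of 32851 such windows of all genes 7.15% held an E-box and 35.7% a GC box. Neither window held the TATA letters, which 13.6% of all windows did. A match or its absence describes these letters only.

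Along the polyamine route the enzymes did not move as 1 group. Odc1, ornithine decarboxylase, whose window is shown above, had values of 10.70 and 10.72 in SAHA cells and 10.53 and 10.57 in control cells. The SAHA arrays were both higher, by 1.12-fold in the mean (change 0.16 ± 0.12, SE, interval -0.14 to 0.45; limma, adjusted p = 0.533). Its other 2 probe sets gave 0.20 and 0.26. All 3 thus had a small positive difference, positive within both replicate numbers, and none passed in a fit of each probe set on its own, where 1.11% of 34958 probe sets with 1 symbol did. The MYC gene Myc, a known activator of Odc1, had a change of -0.48 ± 0.16 (SE; limma, adjusted p = 0.201).

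Srm, spermidine synthase, had values of 7.17 and 7.02 in SAHA cells and 8.74 and 7.65 in control cells. Both SAHA arrays lay below both control arrays, and control replicate 1 was the high one. The mean was 7.10 ± 0.11 in SAHA cells and 8.20 ± 0.77 in control cells (SD, n = 2 each). The change of -1.10 ± 0.34 (SE, interval -1.92 to -0.28) did not pass (limma, adjusted p = 0.169). Without control replicate 2 it passed, at -1.65 (adjusted p = 0.0141), and without control replicate 1 it was -0.55 and did not; over 15 alternatives the adjusted p ran from 0.00121, with a replicate block, under which it also passed, to 0.550. The control replicates differed by 1.09, and differences this large were found in 0.934% of features. Srm had 1 probe set, of a type that can match several transcripts of a gene.

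Sms, spermine synthase, was read only by probe sets that the annotation pairs also with Sms-ps, a pseudogene. The brightest had values of 9.20 and 9.28 in SAHA cells and 9.16 and 8.69 in control cells, a change of 0.31 ± 0.19 (SE, interval -0.14 to 0.77; limma, adjusted p = 0.435). The low array was control replicate 2. Its other 2 probe sets gave -0.11 ± 0.18 and -0.04 ± 0.12 (SE). Each was negative within replicate 1 and positive within replicate 2, so they give no direction. The second of them lay at 4.24 to 4.38, just above the arrays' 25th percentiles (3.94 to 4.04). None of the 3 passed in a fit over the 35890 probe sets with any symbol, of which 1.07% did.

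Sat1, which acetylates spermidine and spermine for export or oxidation, had values of 12.94 and 13.32 in SAHA cells and 12.64 and 13.12 in control cells. The groups overlapped because replicate 2 was higher in each, but the SAHA array was the higher one within both numbers, by 0.31 and 0.20. The change was 0.25 ± 0.20 (SE, interval -0.22 to 0.73; limma, adjusted p = 0.543). It was 0.0081 without control replicate 1, 0.063 without SAHA replicate 2 and 0.49 without control replicate 2. Oaz1, the antizyme that binds ornithine decarboxylase and directs it to the proteasome, had values of 13.25 and 13.26 in SAHA cells and 13.30 and 13.27 in control cells. Its change was -0.03 ± 0.10 (SE), with an interval of -0.26 to 0.20. Its other probe set, shared with the pseudogene Oaz1-ps, gave 0.03, so no direction is given for Oaz1.

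Between same-numbered arrays the difference had the same sign in replicate 1 and replicate 2 for 10 of the 10 genes, against 72.1% of all features. In several of these genes 1 of the differences was close to 0, among them Arg2 (0.01 in replicate 2), Nos2 (-0.03 in replicate 1) and Sms with its pseudogene (0.04 in replicate 1). Srm had differences of -1.57 and -0.63, and Ass1 with its pseudogene -0.36 and -0.59.

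**Figure D3:**
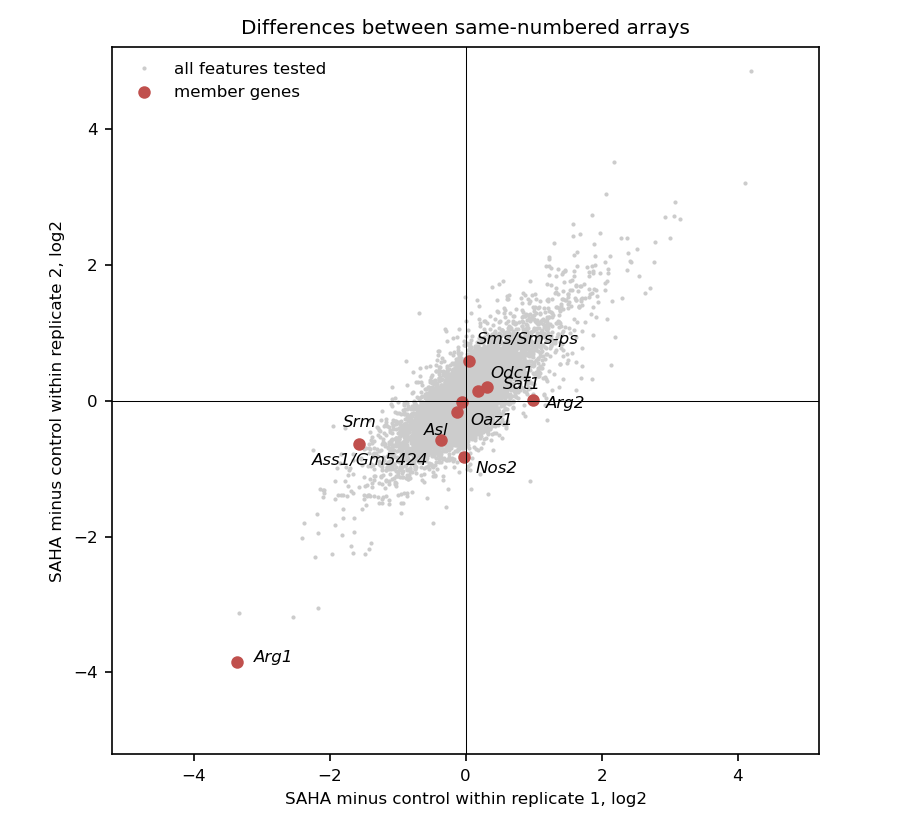
SAHA minus control in log2 units within replicate 1 on the horizontal axis and within replicate 2 on the vertical axis; grey points are the 18196 features and red circles the 10 genes. Arg1 lies at -3.36 and -3.84, apart from the grey cloud, and the other 9 lie within or at the edge of it.

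Of 64 other genes of these routes and their regulators, 54 were measured, and 2 passed the test, 1 lower and 1 higher. Of all features 0.709% were called lower and 1.52% higher. The lower one was Oat, ornithine aminotransferase, which carries ornithine toward glutamate and proline and so draws on the same ornithine as Odc1. It had values of 8.99 and 9.08 in SAHA cells and 10.35 and 10.25 in control cells. The groups lay well apart, and the replicates differed by 0.08 in SAHA cells and 0.10 in control cells. Oat fell 2.40-fold (change -1.26 ± 0.14, SE; limma, adjusted p = 0.0148). It missed the threshold without SAHA replicate 1 (adjusted p = 0.109) and without SAHA replicate 2 (0.0614), with changes of -1.22 and -1.30.

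The higher one was Slc18b1, a vesicular transporter of polyamines. It had values of 5.75 and 5.13 in SAHA cells and 4.17 and 4.08 in control cells, where the control values lay just above the 25th percentile of their arrays (3.99 and 4.04). Slc18b1 rose 2.49-fold (change 1.31 ± 0.21, SE; limma, adjusted p = 0.0406). The call was lost without SAHA replicate 1 (0.999, adjusted p = 0.117) and without control replicate 2 (1.27, 0.0576), and after 32 was added to each linear value (0.62, 0.0637). It was also missed when other genes' probe sets were averaged (0.0509) and when every probe set was tested on its own (0.0517). The promoter windows of these called genes are shown in the same form, with GC boxes in capitals.
Oat (chr7:132576349-132576648, minus strand): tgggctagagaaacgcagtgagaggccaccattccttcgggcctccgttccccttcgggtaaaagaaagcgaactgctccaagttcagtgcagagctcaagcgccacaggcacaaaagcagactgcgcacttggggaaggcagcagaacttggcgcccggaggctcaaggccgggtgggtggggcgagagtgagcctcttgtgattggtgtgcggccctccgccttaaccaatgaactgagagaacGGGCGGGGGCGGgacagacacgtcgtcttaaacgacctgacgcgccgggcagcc
Slc18b1 (chr10:23796736-23797035, plus strand): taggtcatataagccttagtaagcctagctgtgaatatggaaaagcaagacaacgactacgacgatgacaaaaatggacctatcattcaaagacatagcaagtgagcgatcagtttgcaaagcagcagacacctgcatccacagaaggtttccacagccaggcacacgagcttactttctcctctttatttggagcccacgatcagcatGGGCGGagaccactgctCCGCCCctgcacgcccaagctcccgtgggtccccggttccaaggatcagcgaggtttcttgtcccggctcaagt
Each window held 2 GC boxes and no match to the other motifs. The start used is the annotated gene start for Oat and lies 127 bases inside the annotated gene for Slc18b1.

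The other genes that bring in, use or restrain these metabolites went both ways, and none of those named here passed in the limma fit. Among 5 arginine transport genes, 4 had a negative change and the median was -0.46, with -0.67 for Slc7a7 and -0.66 for Slc7a1, the cationic amino acid transporter CAT1 (adjusted p = 0.1996 and 0.0840). The 2 SAHA arrays of Slc7a1 were at 7.57 and 7.64 and the control arrays at 8.21 and 8.32. Among 7 nitric oxide synthase and cofactor genes the median was -0.16. Spr, sepiapterin reductase, which completes the cofactor tetrahydrobiopterin, had a change of -1.005 ± 0.22 (SE, adjusted p = 0.0758). Spr passed with quantile normalization (-1.09, adjusted p = 0.0444), without control replicate 2 (-1.24, 0.0382) and with a replicate block (0.000206). Gchfr, the feedback regulator of the first enzyme of that cofactor's synthesis, had a change of 0.71 ± 0.24 (SE, adjusted p = 0.193), which was 0.36 without SAHA replicate 1, 1.07 without SAHA replicate 2 and 0.37 with an offset of 32. The 10 other measured genes of the urea cycle and of further arginine or ornithine use did not pass.

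Among 5 other polyamine enzymes and antizyme genes, 4 had a positive change and the median was 0.28. Smox, spermine oxidase, which turns spermine back into spermidine, had values of 10.70 and 10.57 in SAHA cells and 9.96 and 9.81 in control cells. Its change of 0.75 ± 0.14 (SE, interval 0.43 to 1.08) just missed the threshold (limma, adjusted p = 0.0509), and it passed with robust spread (0.0494) and with values floored at their array's 25th percentile (0.0398), over a range of 0.000196 to 0.365 in 15 alternatives, the lowest with a replicate block. Oaz2, a further antizyme, had values of 10.02 and 9.76 in SAHA cells and 9.14 and 9.21 in control cells, a change of 0.72 ± 0.15 (SE, adjusted p = 0.0727). In both genes the groups of the brightest probe set did not overlap. The further probe sets of Oaz2 gave smaller changes, 0.49 and 0.18, and that of Smox gave 0.90. Genes of proline synthesis and breakdown included Aldh18a1 (synthesis) at 0.44 and Prodh (breakdown) at -0.36. Further probe sets of Aldh18a1 gave 0.11 to 0.28. Genes of methionine salvage included Enoph1 at -0.55 and Adi1 at -0.38. Those of hypusine, the spermidine-derived residue of eIF5A, included Eif5a2 at 0.61 and Dhps at -0.53. The further probe set of Eif5a2 gave 0.18 and that of Dhps -0.42. Each of these lists had members on both sides of 0 and no call. Among 10 regulators of Arg1, Nos2 or Odc1 none passed and the median was -0.24. Of these 10, 4 had a positive and 6 a negative change. Rela, an NF-kB subunit, had the largest change, -0.56 ± 0.13 (SE, adjusted p = 0.0925). Stat6, which carries the IL-4 signal, had values of 11.15 and 11.11 in SAHA cells and 11.63 and 11.46 in control cells. Its change was -0.42 ± 0.13 (SE; limma, adjusted p = 0.162), and its part in the Arg1 values was not tested.

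**Figure D4:**
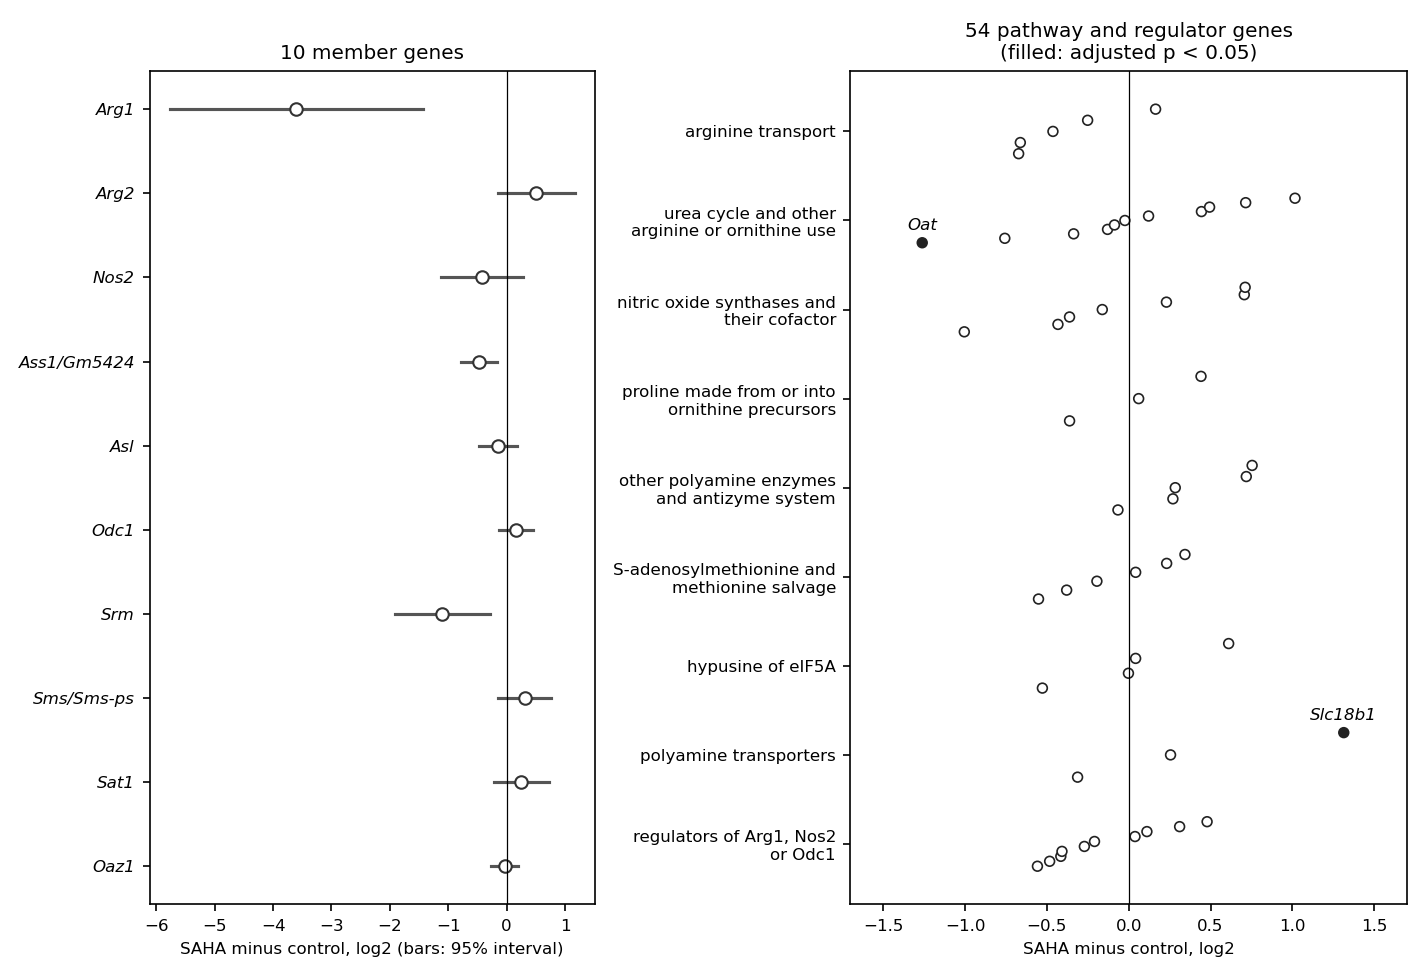
SAHA minus control in log2 units, at the left for the 10 genes with bars for limma's 95% intervals of single genes, and at the right for 54 measured pathway and regulator genes by list, with filled points for those past the adjusted p threshold. Arg1 has the most negative point at -3.60 and the widest interval, and the filled points are Oat at -1.26 and Slc18b1 at 1.31.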

How the data were processed

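Total RNA was labelled with biotin from 6 µg and hybridised to Affymetrix arrays, per the labels' protocols. The authors deposited log2 values per probe set, a scale read from the values (2.59 to 15.0, array medians within 0.012 of each other). The submitters' processing notes name R 2.7. The summarisation and normalization methods are not given in the sources used here. Arrays give no read depth, and their number limits precision.

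Of 45101 probe sets, 34958 had 1 symbol, 932 several and 9211 none, in an annotation that can be old. Symbols were updated through a RefSeq gene table. Each gene was read by its brightest probe set with 1 symbol (18194 genes). Of the 10 genes, Ass1 and Sms had a brighter or only a shared probe set, and these 2 were added as rows, giving 18196 features. Of 64 pathway and regulator genes 54 were measured and 10 were not analysed here.

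The groups were tested with limma 3.58.1, run under R 4.3.3 (trend, two-sided, no covariate). The members, lists and tests were chosen with earlier results of these data known. Named pathway genes are those called in each list, or else the 2 with the largest change; Stat6 was named after its values were seen. Each of the other lists of cell types (mast cell and basophil, eosinophil, B cell, T and NK cell) had no call. On simulated arrays with 200 changed genes among 18196, 27.6% of genes changed 2-fold and 74% of those changed 4-fold were called. The simulated noise was independent between arrays, and fewer genes were changed than were called here. These rates therefore need not hold for this comparison. Alternatives were other spread estimates, quantile or median scaling, floors, an offset, a level filter, averaged probe sets, a replicate block, an ordinary linear model and leaving out each array.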

Additional observations from a re-analysis of the deposited data

How the results depend on the processing

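Of 149 recomputed changes of the 10 genes, 142 kept their sign and stayed uncalled, 6 became called and 1 changed sign. Other spread estimates, the replicate block, the ordinary linear model and the level filter leave each change as it was. A sign could not change under these settings, so the count of kept signs does not measure stability. With a replicate block, Arg1 (-3.60, adjusted p = 7.37e-08), Ass1 with its pseudogene (-0.47, 0.000313), Srm (-1.10, 0.00121) and Sat1 (0.25, 0.0169) passed; it called 4 members, 27 pathway genes and 3617 features. The labels do not say what a number shares, and 2 pairs cannot settle it, so the block was not used for calls; deviations of same-numbered arrays correlated at 0.57 across features. Leaving out each array in turn gave -4.84 to -2.36 for Arg1, -1.65 to -0.55 for Srm and -0.89 to 0.027 for Nos2, the last without control replicate 2, with 31 to 529 features, 0 to 1 members and 0 to 2 pathway genes called; without SAHA replicate 1 it was 31 features and without SAHA replicate 2 it was 90. No feature and so no pathway gene passed with a floor at the 20th percentile (0 called, 3036 at an unadjusted p under 0.05) or an ordinary linear model (0 called, 2210), against 3287 in the limma fit; the cause was not tested. Among genes above the median level, 226 of 9098 were called, with fewer genes tested, and 1 pathway gene; Slc18b1 and Nos2 were not in that set. With an offset of 32 and with the mean of probe sets it was also 1 pathway gene. The floor at the 25th percentile was chosen after seeing the data. Arrays give no depth; 2 per group limit every comparison.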
